A study of Mus musculus with 4 samples.

Results

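The ceramide synthases are the 6 genes Cers1 to Cers6, taken as 6 of 37718 gene rows by matching their symbols to Ensembl identifiers. They brought 51 of 207562 introns and 207 of 605144 exon segments and junctions, and Cers1 alone had no row among the introns. RNA was sequenced from diplotene cells, late prophase I spermatocytes, of Tdrd6+/- and Tdrd6-/- mice at 20 days post partum, with 2 samples per genotype, each pooled from at least 4 mice. Cells of both genotypes carried hCD4 expressed from the endogenous Tdrd6 promoter and were isolated with anti-hCD4 magnetic beads. No sample was therefore wild type, and the gate itself depended on the Tdrd6 locus. The paper describes such preparations as largely but not wholly diplotene cells, with secondary spermatocytes and round spermatids also scored. TDRD6 is a tudor domain protein of male germ cells, and the comparison asked how gene expression and splicing differ between spermatocytes with and without it. Values below follow the order Tdrd6+/- 1, Tdrd6+/- 2, Tdrd6-/- 1 and Tdrd6-/- 2, and p-values measure the spread between these pools.

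Ceramide synthases sit in the endoplasmic reticulum membrane and join a fatty acyl-CoA to a sphingoid base, giving the ceramides from which sphingomyelin and glycosphingolipids are built. Each member prefers acyl chains of certain lengths. CERS1 uses stearoyl-CoA, CERS5 and CERS6 mainly use palmitoyl-CoA, CERS2 and CERS4 use longer saturated chains, and CERS3 uses very long and ultra-long chains. CERS3 is known from skin, where it serves the permeability barrier, and from testis, where spermatogenic cells make sphingolipids with very long polyunsaturated chains.

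Cers3 (ENSMUSG00000030510) occupies positions 66743504 to 66823691 of chromosome 7 (mm10, plus strand) and has 3256 bp of exon. Its 11 exon segments and 10 introns match the 11 exons of a protein-coding transcript of Cers3 in GENCODE M21 and were placed by their order. Fragments that cross a splice junction of this transcript carry the joined exon ends below. The lines show the junctions over intron 1, which hardly any fragment crossed, over intron 2, the first that many crossed, and over introns 7 and 10, which lay at opposite ends of the intron usage changes. Capitals mark the last 3 bases of the upstream exon and the first base of the next one, 5′ to 3′, from GENCODE M21.
Junction over intron 1, chr7:66743752-66764174, plus strand: cgctttgggaagAAGAatgtttcagacgtt
Junction over intron 2, chr7:66764349-66773589, plus strand: atacttctttgaAAAGtttgttgctacacc
Junction over intron 7, chr7:66784870-66786011, plus strand: gatatcaagaggAAGGacttcctcgctcat
Junction over intron 10, chr7:66795940-66821689, plus strand: tgcatattcacgCAGAacgtccaggatgtg
The upstream exon ended in AG, read on the transcript strand, at 5 of the 10 Cers3 junctions, among them those over introns 1, 7 and 10. Of 256479 junctions of protein-coding transcripts in GENCODE M21, 55.9% had AG at this place. A junction can count more than once there if its flanking exons differ between transcripts. The row of intron 1 in the intron counts was placed by order and carries no position of its own. In GENCODE M21 the merged exons put its end at 66764168, before an earlier start of exon 2 annotated there.

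Gene rows held 26454326 to 31388750 counts per sample and intron rows 9603669 to 13937818. Tdrd6, the targeted gene, stood at 1253 and 1402 CPM (the count relative to the TMM-scaled library) in Tdrd6+/- and at 11.4 and 12.6 in Tdrd6-/-. The 12 late spermatocyte markers summed to 7568 to 7880 CPM in Tdrd6+/- and 7987 to 9131 in Tdrd6-/-, where 3 passed the test as higher (Sycp1, Sycp2 and Spag6) and 1 as lower (Piwil1). The 8 round spermatid markers summed to 25.2 to 34.9 against 43.2 to 44.9 CPM, with 2 higher (Acrv1 and Spaca1), and the 8 Sertoli cell markers to 56.4 to 61.9 against 71.6 to 71.8 CPM, with none past the test. Of the round spermatid markers, Prm1 was at 0 in all samples but Tdrd6-/- 2, Tnp1 was at 0 in Tdrd6+/- 1 and Tnp2 was at 0 in Tdrd6-/- 1. No other marker of all these lists was at 0 in any sample, and the part these cells have in the results was not tested. In such bulk samples fewer cells of a type and less RNA per cell cannot be told apart.

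Cers3 was by far the main ceramide synthase transcript of these diplotene cell preparations. Which cells in them held the transcripts of the lower members was not tested. Its gene count was 14973, 13419, 15967 and 18372. Scaled to CPM and divided by exon length, so that genes can be compared, its level was 173, 147, 156 and 178 CPM per kb, a mean of 164 ± 14.7 (SD, n = 4). Of 19613 genes with 10 or more counts over the samples, it ranked 230 by this level. The genotypes overlapped.

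Cers5, a palmitoyl-CoA-using synthase on chromosome 15, was next with 5.12, 4.41, 5.17 and 4.67 CPM per kb. Cers2, which makes very-long-chain ceramides in many tissues and lies on chromosome 3, followed with 1.97, 2.22, 2.46 and 2.61 CPM per kb. Cers6 on chromosome 2, the other palmitoyl-CoA-using member, reached 0.782, 0.828, 1.05 and 0.733 CPM per kb. The order Cers3, Cers5, Cers2, Cers6 held in every sample, with no overlap of neighbours. Cers3 exceeded Cers5 33.9 ± 3.28 times (SD, n = 4), Cers5 exceeded Cers2 2.12 ± 0.346 times and Cers2 exceeded Cers6 2.78 ± 0.543 times. For each such pair all 4 samples pointed one way, and the exact sign-flip test over 4 samples gave p = 0.125, the smallest it can give. The order was set from the means of these same samples, of both genotypes, so this p adds no support to it.

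Cers1 and Cers4 had few counts. Cers1, the stearoyl-CoA-using synthase known from brain and muscle, had gene counts of 5, 3, 7 and 7 in a row that the files join with a second overlapping gene, so some of these counts may belong to that gene. Cers4, on chromosome 8 like Cers1, had counts of 16, 22, 21 and 17 over 12264 bp of exon, or 0.0528 ± 0.00859 CPM per kb (SD, n = 4) against 0.0583 ± 0.0171 for Cers1. Their ranges overlapped (exact sign-flip p = 0.75), so the last places in the order cannot be assigned.

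**Figure D1:**
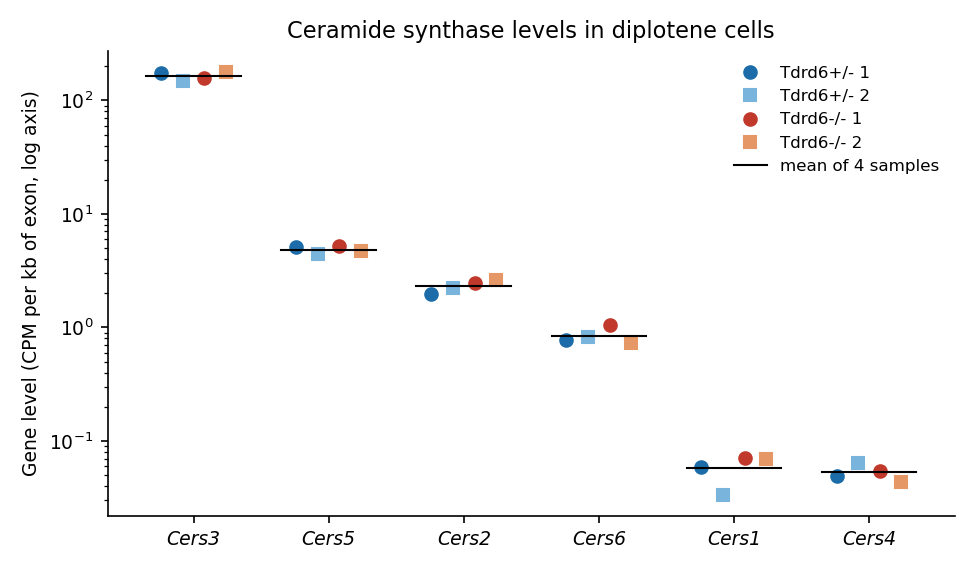
Level of each ceramide synthase in CPM per kb of exon on a log axis, with 1 point per sample and a line at the mean of 4 samples. Cers3, at 147 to 178, stands above Cers5, at 4.41 to 5.17, in all samples, and only Cers1 and Cers4 overlap.

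Of the summed length-corrected level of the family, Cers3 held 95.6%, 95.1%, 94.7% and 95.6%, a mean of 95.3% ± 0.463 (SD, n = 4). The means were 95.4% ± 0.347 in Tdrd6+/- and 95.1% ± 0.693 in Tdrd6-/- (SD, n = 2 each; two-sided exact permutation p = 1, where 2 samples against 2 cannot go below 0.33). The genes closest to Cers3 in level were Arl6ip1 at 0.0573, Mtmr6 at 0.0918 and Tram1 at 0.0957. These values are root-mean-square differences in log2 CPM per kb over the 4 samples. They compare abundance more than the course over samples, and shared regulation was not tested. ARL6IP1 and TRAM1 are proteins of the endoplasmic reticulum, and MTMR6 is a phosphoinositide phosphatase.

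The family showed no difference in gene expression past the spread between samples. None of the 5 members that could be tested passed a false discovery rate of 0.1 in edgeR's quasi-likelihood test, where 4.8% of 16555 genes did. DESeq2 also called 0 members, and 0 had an unadjusted p under 0.05 in either tool. Over all genes, 2317 of 16555 had such a p in edgeR and 1762 of 26309 in DESeq2. Cers1 was too low to be tested. The log2 fold change of Cers3 in Tdrd6-/- was 0.03 (standard error 0.13, adjusted p = 0.948), from group means of 160 ± 18.8 and 167 ± 15.7 CPM per kb (SD, n = 2 each). Those of Cers2, Cers5 and Cers6 were 0.25, 0.02 and 0.12 with standard errors of 0.22, 0.18 and 0.23, and that of Cers4 was -0.23 with a standard error of 0.44. For Cers2 both Tdrd6-/- samples lay above both Tdrd6+/- samples, at an adjusted p of 0.694, while the groups of Cers3, Cers4, Cers5 and Cers6 overlapped. The change of Cers3 was -0.08 without Tdrd6+/- 2 and -0.05 without Tdrd6-/- 2.

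The exons of Cers3 were covered evenly except at both ends. Exon segments 2 to 10 held between 357 and 751 CPM per kb in the 4 samples, where a fragment can count on several short segments. The last segment, a long exon that holds the end of the coding sequence, lay at 155 to 185 CPM per kb. Exon segment 1 was almost empty, with 1.27 to 2.28 CPM per kb, in the range of the introns.

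The counts of exon segment 1, at 66743504 to 66743751, were 15, 13, 11 and 10, against 2069, 1744, 2222 and 2608 in exon segment 2, at 66764175 to 66764348. Per kb this was 0.412% ± 0.124 of exon segment 2 (SD, n = 4). Its junction to exon 2, printed above, was seen 2, 2, 1 and 6 times, while the junction over intron 2 had 1090, 1048, 1236 and 1396 fragments. The mean ratio of these junctions was 0.221% ± 0.148 (SD, n = 4). The coding sequence of the annotated transcript starts in exon 1, at 66743645, where few fragments of these samples lay. In the junction over intron 1 printed above, exon 2 itself opens with A and then ATG. Which start codon these transcripts use was not tested, so the low count of exon 1 does not show a missing start.

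An unannotated junction of Cers3 was abundant. It had 454, 403, 526 and 669 fragments, or 42.6% ± 3.93 of the junction over intron 2 (SD, n = 4), and ranked 25 among 5005 unannotated junctions in total count. A further unannotated junction had 21, 21, 31 and 34 fragments. The files give no positions for unannotated junctions, so the exons these join are not known here. In the RefSeq annotation of GRCm38.p6, Cers3 starts at 66733118, which is 10386 bp upstream of the GENCODE start.

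**Figure D2:**
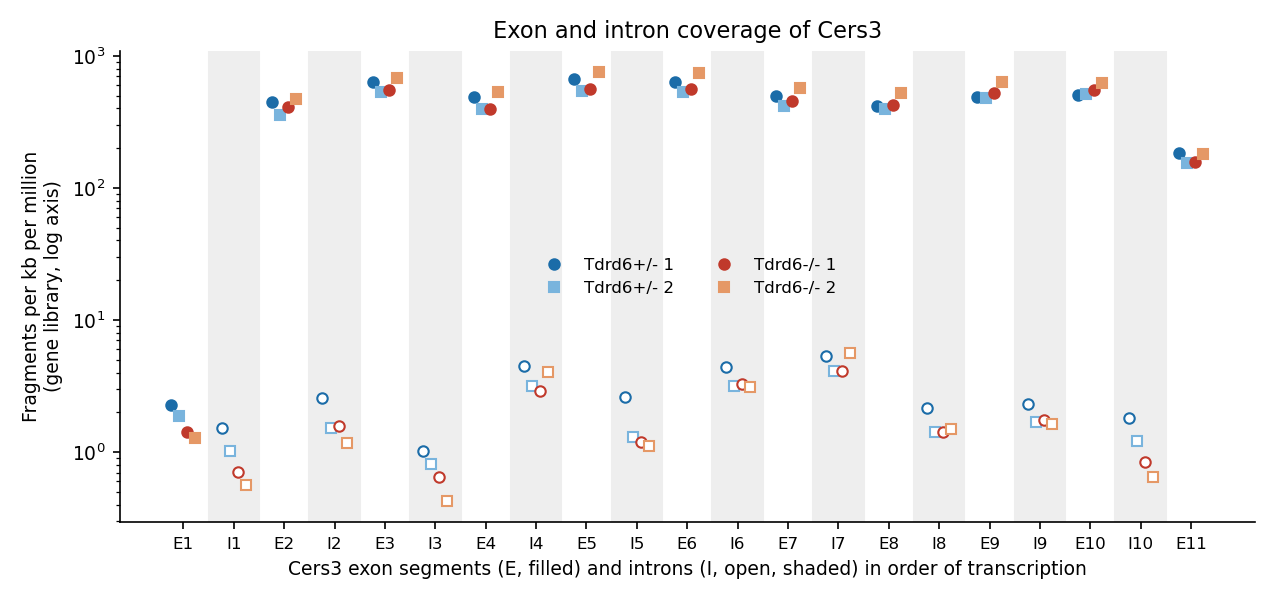
Level in CPM per kb, scaled to the gene library, on a log axis for the Cers3 exon segments (E, filled) and introns (I, open), with 1 point per sample. Exon segment 1 lies at 1.27 to 2.28, near the introns, while exon segments 2 to 10 lie between 357 and 751.

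No exon segment or junction of the family passed the usage test between genotypes. Usage compares the count of a feature with the rest of its gene. Of the 122 exon segments and junctions that could be fitted, 27 were tested and 0 passed, where 0.221% of 147710 features did. edgeR also called 0, and 1 of the fitted features had an unadjusted p under 0.05 (2 in edgeR). Of all 323115 features fitted, 9534 had such a p (20397 in edgeR). For Cers3 the lowest p among lower segments was that of the last exon, E011, with a log2 change of -0.19 (standard error 0.09, unadjusted p = 0.0304). It held 65.5%, 64.8%, 62.4% and 61.8% of the gene count, so the genotypes did not overlap, but the adjusted p was 1.00. E001, the only other segment with a change below 0, was too low to be tested and stood at -0.69 with a standard error of 0.62.

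Among the segments with higher usage, E009, E008 and E010 of Cers3 had the lowest p, with log2 changes of 0.22, 0.17 and 0.16 and standard errors of 0.11 each. The junctions with the lowest p were J019, over intron 8, at 0.24, the abundant unannotated junction at 0.21 and J020, over intron 9, at 0.17, with standard errors of 0.13 each. Only J014, over intron 3, was below 0, at -0.02 with a standard error of 0.11. All adjusted p of these features were 1.00. Usage is relative to the rest of the gene, so a lower share of E011 can raise the others, and these changes are not independent of each other.

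The introns of Cers3 held 4089, 2899, 2739 and 2452 fragments in total. Introns 1, 2 and 10 are the longest, with 20417, 9241 and 25750 bp, and the other 7 run from 1142 to 6090 bp. Per length, the introns ranged from 0.427 to 5.59 CPM per kb of the gene library, with the highest values in introns 4, 6 and 7 and the lowest in introns 1, 3 and 10. Against the junction that removes it, intron 7 had 28.1, 22.5, 19.7 and 25.5 fragments per kb for each 100 junction fragments, and intron 10 had 5.24, 3.53, 2.37 and 1.73. Intron 7 is the shortest intron of the gene and intron 10 the longest. How fragments that cross an exon border were counted is not given, and they could weigh more per kb on a short intron. These values therefore do not show which intron is removed less well.

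Intron 10 took the largest share of Cers3 intron fragments and was the one member intron that passed the usage test. Its share was 30.3% and 30.0% in Tdrd6+/- and 24.9% and 21.5% in Tdrd6-/-, and its counts were 1237, 871, 683 and 527. The groups did not overlap, and both Tdrd6-/- samples were lower. For this share the two-sided exact permutation test gave p = 0.33, the smallest that 2 samples against 2 can give. How many of all introns separate in this way was not counted. The log2 usage change was -0.52 (standard error 0.17), with an adjusted p of 0.09996 by the likelihood ratio test fitted in DESeq2, which lies on the threshold of 0.1. This was 1 of 18 member introns tested, where 1.94% of 28903 introns passed and 1.22% passed as lower. Intron 10 of Cers3 is among the introns that the study chose by its calls in these libraries and then measured by RT-qPCR in other RNA samples. The usage change found here is therefore not independent evidence of a direction. The paper drew such genes from those found by both its intron analysis and its exon and junction analysis. In the fits here no exon segment or junction of Cers3 passed. The adjusted p was 0.129 with introns of at least 1 count, 0.295 in edgeR, 0.0592 without Tdrd6-/- 1, 0.522 without Tdrd6+/- 2, 1 without Tdrd6+/- 1 and 1.00 without Tdrd6-/- 2.

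Intron 1 held 20.0% and 20.2% in Tdrd6+/- and 16.6% and 14.9% in Tdrd6-/-, also without overlap, but its usage change of -0.43 (standard error 0.17) had an adjusted p of 0.25, or 0.0225 with the gene count as reference. Its junction was seen only 2, 2, 1 and 6 times. Whether these transcripts remove this stretch as an intron was therefore not shown, which limits every value given here for intron 1. Intron 2, the other long intron, held 15.5%, 13.6%, 16.6% and 14.0%, with overlapping groups and a change of 0.09. Intron 3 stood at 3.84%, 4.59%, 4.38% and 3.22% and intron 5 at 2.62%, 1.97%, 2.12% and 2.24%. Both overlapped between the genotypes, and intron 5 was too low to be tested.

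The remaining introns of Cers3 had larger shares in both Tdrd6-/- samples, and none passed the test. The two-sided exact permutation p of each share was 0.33, the floor for 2 samples against 2, so this separation alone is weak. Intron 7 held 3.96% and 4.55% in Tdrd6+/- and 5.40% and 8.24% in Tdrd6-/-, with a log2 usage change of 0.70 (standard error 0.25, adjusted p = 0.161). Intron 4 held 6.16%, 6.45%, 7.01% and 11.1%, with a change of 0.53 (adjusted p = 0.353). In both introns Tdrd6-/- 2 stood well above the other samples. Intron 9 held 9.15%, 9.87%, 12.3% and 12.9%, with a change of 0.46 (adjusted p = 0.255). Introns 6 and 8 had usage values of 0.42 and 0.37 (adjusted p = 0.517 and 0.576). Without Tdrd6-/- 1, introns 4 and 7 passed (adjusted p = 0.0235 and 0.016), and intron 7 also did with the replicate block (0.0956). Without Tdrd6-/- 2 they stood at 0.17 and 0.37 (adjusted p = 1.00 for both), and with the gene count as reference introns 4, 6, 7 and 9 stood at 0.12, 0.03, 0.29 and 0.04. These shares sum to 100% within a sample, so a lower share of some introns raises the others.

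**Figure D3:**
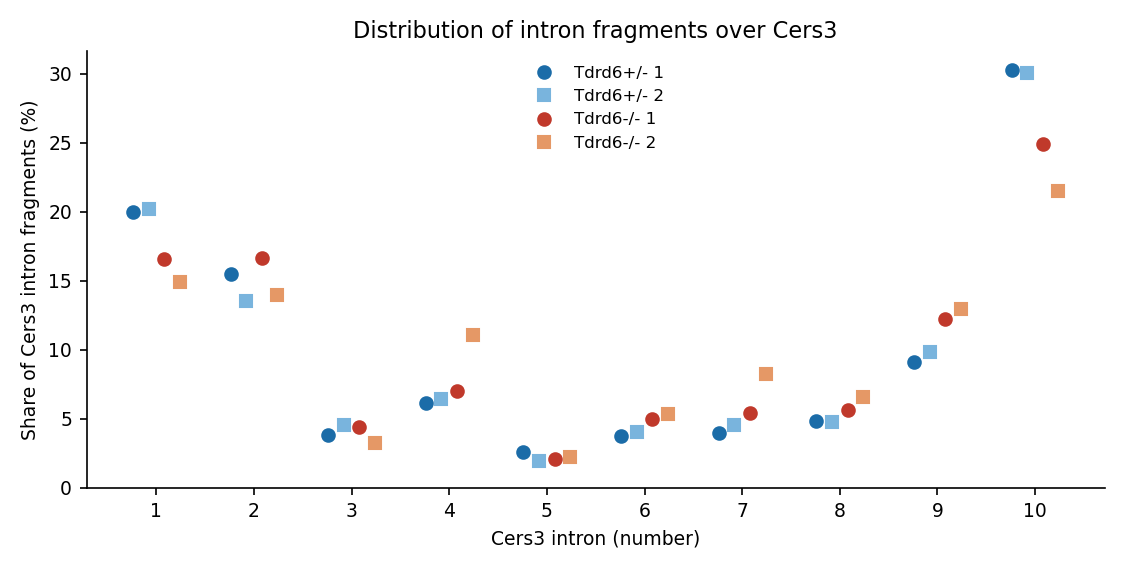
Share of all Cers3 intron fragments, in percent, that fell on each of the 10 introns, with 1 point per sample. Intron 10 lies at 30.3% and 30.0% in Tdrd6+/- and at 24.9% and 21.5% in Tdrd6-/-, and the shares of introns 7 and 9 lie higher in both Tdrd6-/- samples.

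As a description, with the introns grouped after their shares were seen, introns 1 and 10 of Cers3 together had 2053, 1456, 1137 and 892 fragments, or 160, 122, 85.3 and 85.4 CPM of the intron library. With intron 2, whose shares overlapped, the sum of the long introns was 209, 155, 120 and 118 CPM. Introns 3 to 9 together had 1404, 1050, 1146 and 1217 fragments, or 110, 88.2, 86.0 and 116 CPM.

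The level of an intron, tested against all introns with no reference to its gene, was also compared. None of the 31 member introns tested passed in edgeR, where 0.697% of 99126 introns did, while 5 had an unadjusted p under 0.05, as did 10502 of all introns tested. DESeq2 called 2 of 16 member introns tested, introns 1 and 10 of Cers3, where it called 8.05% of 18746 introns. In edgeR their log2 changes were -0.67 and -0.70 (standard errors 0.24 and 0.25, adjusted p = 0.278 and 0.265). The other 3 with a low unadjusted p were higher in Tdrd6-/-, introns 5 and 7 of Cers5 at 0.73 and 0.51 and intron 8 of Cers6 at 0.80. When introns were scaled by the gene libraries, the median change of all introns tested moved from 0.03 to -0.28, and 0 members passed.

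The ratio of intron to gene counts of Cers3 was 0.273 and 0.216 in Tdrd6+/- and 0.172 and 0.133 in Tdrd6-/-. The means were 0.245 ± 0.0403 and 0.153 ± 0.0269 (SD, n = 2 each), and the groups did not overlap, with a two-sided exact permutation p of 0.33, the smallest possible. The same ratio over whole libraries was 0.527, 0.419, 0.425 and 0.306, lowest in Tdrd6-/- 2. Its median over 15190 genes was 0.714, 0.662, 0.648 and 0.494, also lower in both Tdrd6-/- samples without overlap. A lower ratio was thus not particular to Cers3, and how many genes separate this way was not counted. With intron and gene counts each scaled to their own library, the Cers3 ratio was 0.565, 0.509, 0.405 and 0.405, still without overlap. Without intron 10 the Tdrd6-/- mean was 0.684 times that of Tdrd6+/-, against 0.624 times with it.

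Cers3 had few intron fragments for its expression. Its pooled ratio lay at percentile 16.6 of 15190 genes, whose median was 0.632, and that of Cers2, with 132 intron fragments in all, at percentile 9.37. Cers5 had ratios of 1.66, 2.01, 2.18 and 1.45, at percentile 78.6. Cers6, whose introns reach 71790 bp, had 1950, 2224, 3198 and 1360 intron fragments, or 10.6, 10.8, 10.9 and 6.60 per gene fragment, at percentile 96.9. Its groups overlapped, and the ratio takes no account of intron length.

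Among the 9 tested introns of the other members, 3 of Cers5 and 6 of Cers6, none had a usage change past the test. Those of Cers5, numbered along the chromosome on this minus-strand gene, were 0.20 for intron 7, -0.11 for intron 9 and -0.22 for intron 10. Those of Cers6 ran from -0.24 for intron 4 to 0.26 for intron 9, with adjusted p of 0.724 or more. The long introns of Cers6 lay on both sides of 0. No intron of Cers2 or Cers4 had enough fragments.

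**Figure D4:**
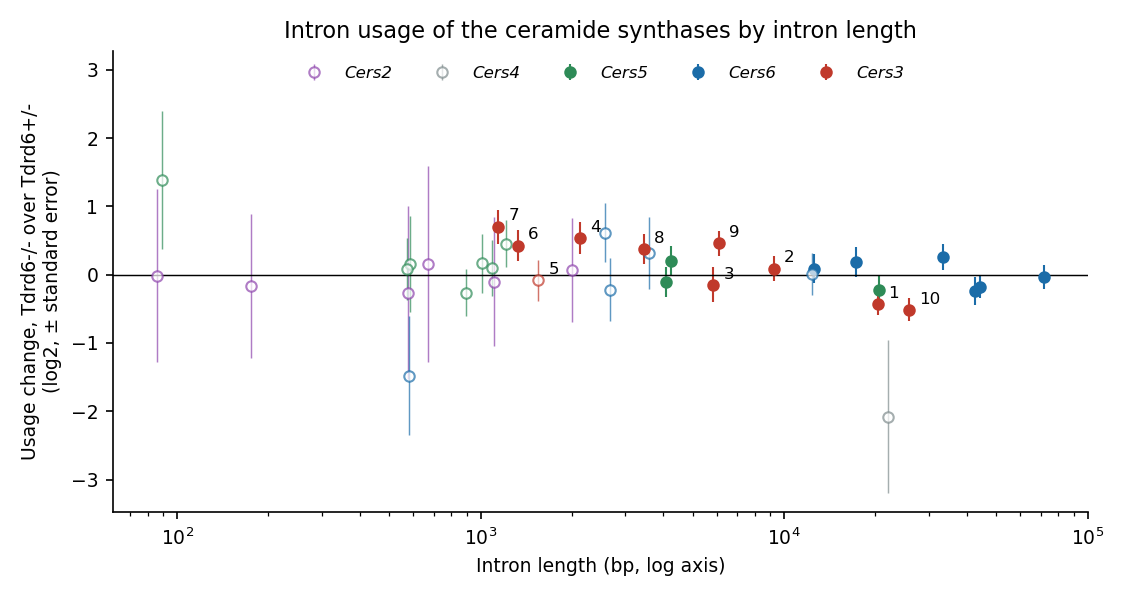
Log2 usage change (Tdrd6-/- over Tdrd6+/-) with its standard error against intron length in bp on a log axis, for all fitted introns of Cers2 to Cers6. Filled points were tested, open points were too low, and numbers name the Cers3 introns, of which intron 10 at -0.52 is the one past the threshold.

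The wider sphingolipid pathway was followed in a list of 68 gene rows ordered by role. Of these, 59 could be tested, 0 were higher and 3 were lower in Tdrd6-/-, a share near the 4.8% of all genes that passed, 3.78% of all genes being lower. The median log2 change was 0.04 over the list and 0.01 over all genes tested. The 3 were Elovl2, an elongase of polyunsaturated acyl-CoA, Gba2, the non-lysosomal glucosylceramidase, and Galc, the lysosomal galactosylceramidase.

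Elovl2 stood at 101 and 114 CPM per kb in Tdrd6+/- and 78.6 in both Tdrd6-/- samples, the highest of 13 elongation genes. It fell by 0.48 on the log2 scale (standard error 0.13, adjusted p = 0.0421), with no overlap of the groups. Gba2 had 23.3 and 25.5 against 17.5 and 16.7 CPM per kb and a change of -0.54 (standard error 0.13, adjusted p = 0.0251). Galc had 2.98 and 2.29 against 1.85 and 1.71 CPM per kb and a change of -0.59 (standard error 0.17, adjusted p = 0.0563). Without Tdrd6-/- 2 none of the 3 passed (adjusted p = 0.403 for Elovl2, 0.392 for Gba2 and 0.485 for Galc). Without Tdrd6-/- 1 they stood at 0.224, 0.121 and 0.125, without Tdrd6+/- 2 Elovl2 stood at 0.105, and without Tdrd6+/- 1 Galc stood at 0.397.

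The most abundant genes of each step did not pass the test unless named above. In base synthesis these were Ormdl2, a regulator of serine palmitoyltransferase, at a mean of 21.4 CPM per kb, and its small subunit Sptssa at 10.5, with log2 changes of 0.21 and 0.01. The ceramide desaturase Degs1 stood at 3.38 and the ketoreductase Kdsr at 0.322 CPM per kb, with changes of 0.09 and 0.14. Hacd3, an acyl-CoA dehydratase of elongation, reached 30.1 CPM per kb with a change of 0.17. The fatty acid hydroxylase Fa2h reached 11.9 and the desaturase Fads2 3.31 CPM per kb, with changes of -0.09 and 0.35. Of the list, Smpd5, a sphingomyelinase, alone came near Cers3, at 149 CPM per kb with a change of 0.02.

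Downstream of ceramide, Smpd4, also a sphingomyelinase, stood at 17.0 CPM per kb with a change of -0.05. The ceramide phosphate carrier Cptp stood at 52.0 and ceramide kinase Cerk at 28.2 CPM per kb, with changes of 0.03 and -0.07. Hexa, a hexosaminidase subunit that degrades gangliosides, stood at 58.6 with a change of 0.04. The ceramidases Asah1 and Acer3 were at 2.13 and 0.522 CPM per kb, with changes of 0.14 and 0.34. Sphk2, a sphingosine kinase, and Sgpp2, a sphingosine phosphate phosphatase, stood at 9.98 and 8.49 with changes of 0.19 and -0.40, the latter at an adjusted p of 0.321.

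**Figure D5:**
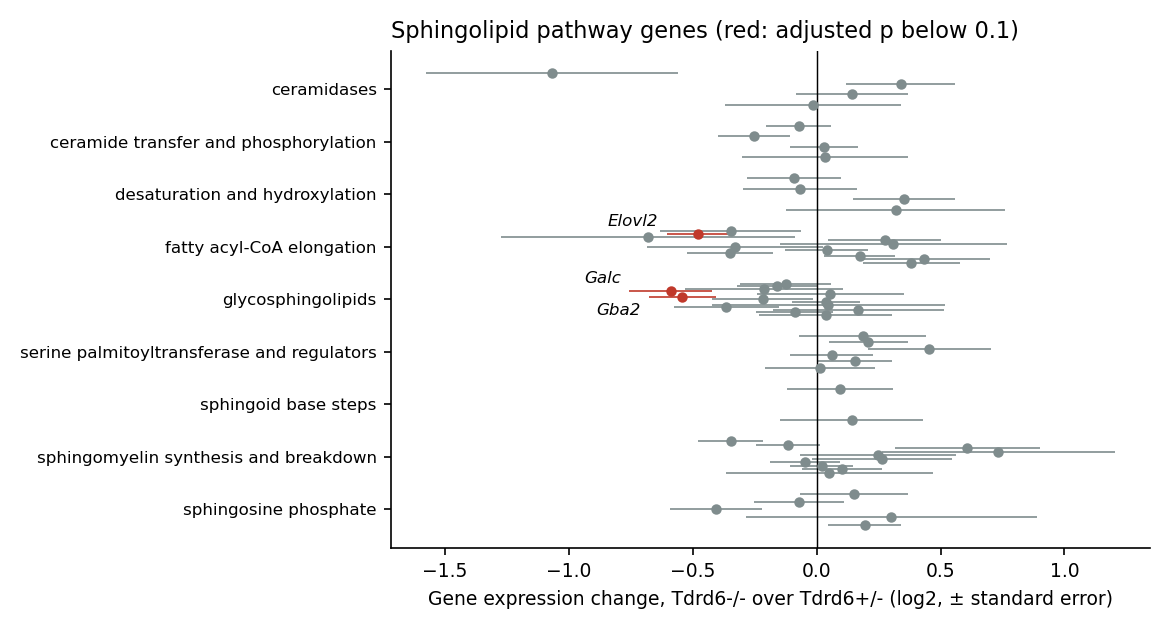
Log2 gene expression change (Tdrd6-/- over Tdrd6+/-) with its standard error for the 59 tested genes of the sphingolipid list, by role. The 3 red points, Elovl2 at -0.48, Gba2 at -0.54 and Galc at -0.59, are the genes past the false discovery rate of 0.1.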

How the data were processed

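Fragments were aligned to mm10 with GSNAP and annotated with Ensembl release 75 by the authors, who deposited raw counts per intron, and per gene, exon segment and junction. The counting program and its strand setting are not given in the sources used here. Positions came from GENCODE M21, by order, where feature numbers matched. For genes and intron levels, edgeR 4.0.16 in R 4.3.3 gave the quasi-likelihood test, after filterByExpr and TMM scaling. Intron usage and exon and junction usage followed the DEXSeq and JunctionSeq models, fitted with DESeq2 1.42.0 (at least 10 counts, likelihood ratio test, independent filtering). All p-values were adjusted by Benjamini-Hochberg over all features, at a false discovery rate of 0.1. The scripts were tested on simulated data. For exons and junctions, false calls exceeded that rate there. Alternatives were other tools, scalings and filters, the replicate block, other lengths, and leaving out each sample. Named were all members, every Cers3 intron, and the Cers3 exon segments and junctions with the lowest p. The 3 genes closest to Cers3 in level and pathway genes that passed or led their role were also named. Members and lists were chosen with earlier results of these data known.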

Additional observations from a re-analysis of the deposited data

How the results depend on the processing

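The count of member introns with changed usage, 1 in the report, rested on a value at the threshold. It was 2 with the replicate block, 2 with the gene count as reference, 0 with at least 1 count, 0 in edgeR, and 0 to 3 when 1 sample was left out. Over all introns 561 of 28903 passed, against 881 of 36391 with the block, 1266 of 29816 with the gene count as reference, 283 of 128748 in edgeR and 4 to 1174 without 1 sample. Under all alternatives the usage change of Cers3 intron 10 lay between -0.75 and -0.38, and that of intron 1 between -0.72 and -0.34. With the gene count as reference, introns 2 (-0.30) and 8 (-0.020) changed sign, and the values of introns 4, 6, 7 and 9 went from 0.53, 0.42, 0.70 and 0.46 to 0.12, 0.03, 0.29 and 0.04. Member genes, exon segments and junctions stayed at 0 calls in all fits, but over all exon segments and junctions 51 to 765 passed without 1 sample, against 327. Over all genes 794 of 16555 passed, against 75 of 26309 with no filter and 257 to 1064 without 1 sample. The pathway count of 3 became 0 with no filter and 0 to 4 without 1 sample. DESeq2 called 2 of 16 member intron levels, and 1509 of 18746 over all introns. edgeR called 691 of 99126, 1292 of 173308 with no filter, 1584 of 99126 with the block and 37 to 2776 without 1 sample. Scaling introns by gene libraries gave 146 calls over all introns and turned the levels of Cers3 introns 4 (-0.14), 6 (-0.24), 8 (-0.30) and 9 (-0.23). The Cers3 share of 95.3% was 94.0% with no length correction and 93.6% with the longest transcript. The cause of these changes was not tested.

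Leaving out 1 sample turned the sign of some small changes that had not passed. Gene expression ran from -0.082 to 0.175 for Cers3, -0.085 to 0.149 for Cers5 and -0.164 to 0.37 for Cers6. Usage of Cers3 ran from -0.062 to 0.235 for intron 2, -0.393 to 0.068 for intron 3, -0.271 to 0.151 for intron 5, -0.021 to 0.355 for J020 and -0.080 to 0.046 for J014. Levels of Cers3 introns ran from -0.523 to 0.051 for intron 2, -0.275 to 0.599 for intron 4, -0.767 to 0.029 for intron 5, -0.073 to 0.241 for intron 6, -0.075 to 0.75 for intron 7, -0.193 to 0.252 for intron 8 and -0.057 to 0.237 for intron 9.

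Nothing in the labels pairs same-numbered samples, and their deviations correlated at -0.11 over genes and 0.05 over introns. The block gave 1046 genes and 306 exon segments and junctions. The crossed pairing, added after seeing the data, gave 1175 genes, 255 introns, 279 exon segments and junctions and 463 intron levels, with 0 members. Cers1, Cers4 and the introns of Cers2 and Cers4 had too few counts for a statement on genotype.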

Other observations

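Introns of at least 9 kb, the length class of Cers3 introns 1, 2 and 10 and chosen after their values were seen, were described over all genes. Of 5150 such introns tested and placed, 65.8% had lower usage in Tdrd6-/-, with a median log2 usage change of -0.09. Of 12735 shorter introns 42.7% were lower, with a median of 0.04. Usage is relative within a gene, so these classes are not independent of each other.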
